A study of Rattus norvegicus with 9 samples.

Results

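The noncompact and late myelin genes described here are 8 genes chosen by name: Mag, Mog, Cnp, Opalin, Ermn, Cntn2, Car2 and Ppp1r14a. Each had 1 row among the 32623 Ensembl IDs of the count table, and all 8 were among the 15321 genes with enough reads to be tested. RNA came from wild-type rat oligodendrocyte precursor cells (OPCs, source tissue brain) grown as primary cultures for 5 days in differentiation medium, which held laminin, biotin, B27 and N1 supplements. The 9 libraries were 3 without drug (basal), 3 with 1 µM and 3 with 10 µM bavisant, which blocks histamine H3 receptors, all in the same medium. Each group held libraries numbered P11, P13 and P14 in their titles, which do not say what P marks. Whether the numbers stand for separate cultures or animals is not stated in the sources, and if they do not, the tests here measure only technical spread.

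Myelin is laid down by oligodendrocytes as a membrane spiral. Its compacted layers are held together by proteins such as Mbp, while cytoplasm remains in noncompact zones: the inner tongue beside the axon, the paranodal loops and thin channels through the sheath. Mag and Cnp belong to these noncompact zones and come on early in differentiation, whereas Mog, Opalin and Ermn come on late, as the sheath matures. The comparisons below ask how this group of genes stood at each dose of bavisant, and how it varied between libraries of the same dose.

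The depth was 23.9 to 43.1 M estimated reads per library (M, 1e+06). The 16 oligodendrocyte markers other than the 8 genes summed to 40526 to 65539 CPM (reads per library brought to the same total) and the 12 OPC markers in the table to 5107 to 5569 CPM, and no gene of either list was at 0. The libraries numbered P11 stood apart from P13 and P14 at every dose, and 51.5% of all tested genes differed between P numbers (edgeR quasi-likelihood test, adjusted p under 0.05, dose in the fit). Neuron markers (14 tested of 15, none at 0) summed to 1394 to 1584 CPM in P11, 1419 to 1934 CPM in P13 and 1611 to 1860 CPM in P14. Of the other cell types, astrocyte markers summed to 2405 to 4168 CPM over all libraries, microglia to 605 to 855 CPM, Schwann cell to 355 to 462 CPM (with Ncmap at 0), mural cell to 116 to 184 CPM and choroid plexus and ependyma to 87.6 to 293 CPM.

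Promoter sequences from RefSeq (build GRCr8) were matched for 5 of the 8 genes: Mag, Cnp, Opalin, Cntn2 and Ppp1r14a. The 250 bases before the annotated start of Mag and Cnp are shown because these 2 genes had the highest levels. They also had the smallest pattern difference by the measure given below, and the lowest adjusted p at 10 µM over basal. Mag lies on the minus strand with its window at chr1:95291045-95291294, and Cnp on the plus strand with its window at chr10:86011254-86011503. Capitals mark letters of a MYRF motif (CTGGCAC or CTGGTAC) and of the SOX core (ACAAAG), read on either strand.
Mag: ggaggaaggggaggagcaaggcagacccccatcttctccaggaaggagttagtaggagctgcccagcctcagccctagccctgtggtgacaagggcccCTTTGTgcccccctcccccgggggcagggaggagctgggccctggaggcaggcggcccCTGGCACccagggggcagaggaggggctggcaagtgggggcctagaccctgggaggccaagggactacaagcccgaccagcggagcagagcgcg
Cnp: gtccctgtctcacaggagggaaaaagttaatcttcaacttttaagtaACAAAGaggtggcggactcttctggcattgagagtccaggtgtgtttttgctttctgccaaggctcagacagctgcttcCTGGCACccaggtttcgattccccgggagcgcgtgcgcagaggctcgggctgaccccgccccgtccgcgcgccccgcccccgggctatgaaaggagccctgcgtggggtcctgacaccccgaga
MYRF and SOX10 are transcription factors of myelinating oligodendrocytes. The MYRF letters began 94 bases before the start of Mag and 124 bases before that of Cnp, as CTGGCAC in both. They stood once in the Opalin window, as GTGCCAG on the opposite strand 17 bases before the start, and 0 times in the windows of Cntn2 and Ppp1r14a. Of all 33469 promoters of this length, 5.48% held them. The SOX core stood once in Mag (as CTTTGT), once in Cnp and 2 times in Opalin, and in 16.3% of all promoters. A GC box (GGGCGG), held by 30.5% of all promoters, stood 4 times in Ppp1r14a and 2 times in Cnp, and a TATA box (TATAAA, 12.9% of all promoters) in none of the 5 windows. The motifs did not overlap, the search covered either strand, and other RefSeq models of Mag, Opalin, Cntn2 and Ppp1r14a begin further upstream. A match is only a match of letters.

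The 8 genes spanned more than 3 orders of magnitude. On the TPM scale (transcript abundance corrected for gene length and scaled to a common total), Cnp averaged 3894 over the 9 libraries, Mag 1741, Mog 74.6, Ppp1r14a 41.7, Ermn 25.3, Opalin 17.3, Car2 13.9 and Cntn2 1.28. This order held in 9 of 9 libraries for every pair of neighbours except Opalin and Car2. Opalin was the higher in 7 of 9, and the exceptions were the basal and 1 µM libraries numbered P14. The difference between these 2 levels was not tested. Cnp ranked between 11 and 18 among all genes in the table and Mag between 27 and 68. Mag and Cnp together held 95.02% to 98.4% of the summed TPM of the 8 genes, and that sum was 0.478% to 0.776% of all TPM in a library. Cntn2 had 57 to 195 reads per library, the fewest of the group.

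**Figure D1:**
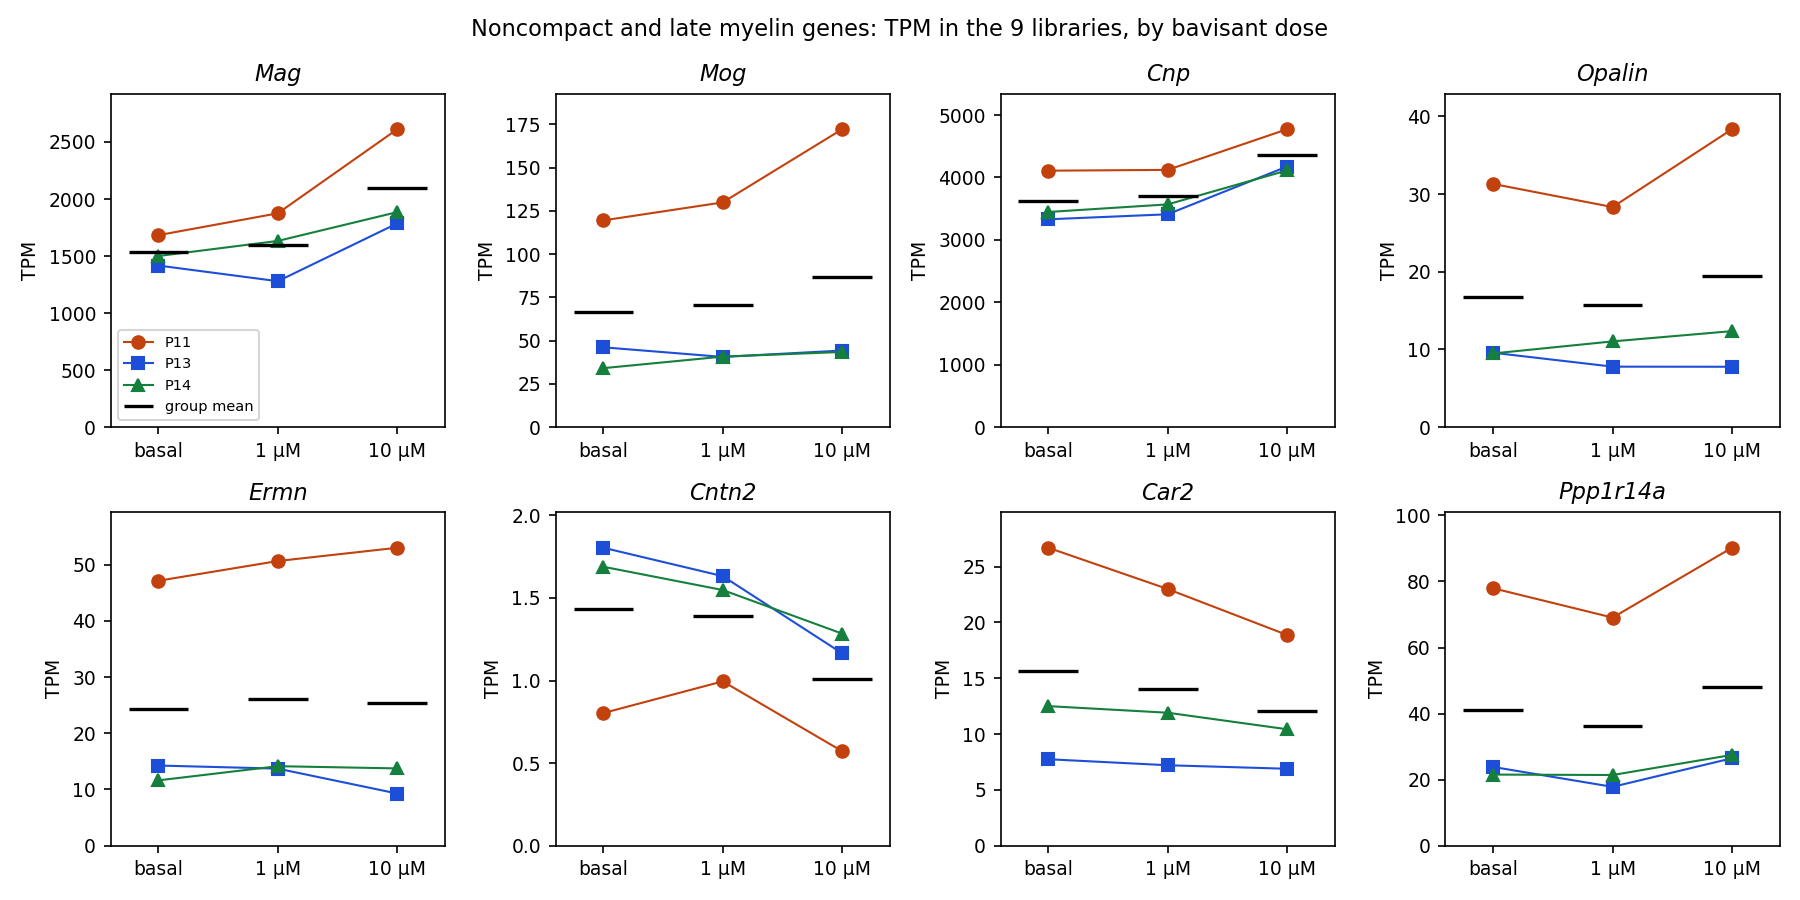
TPM (vertical axis, linear and starting at 0) of each of the 8 genes in the 9 libraries, by dose from basal to 10 µM. Points are libraries, coloured and joined by P number, and black bars are group means (n = 3). Mag, Cnp and Ppp1r14a are highest at 10 µM in all 3 P numbers. P11 is the highest library at every dose for all genes but Cntn2, with the widest gaps relative to level for Mog, Opalin, Ermn, Car2 and Ppp1r14a.

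At 10 µM bavisant, Mag and Cnp rose over basal cultures in the fit that takes the P number into account. Mag was 1.44-fold and Cnp 1.26-fold higher. Mog, Opalin, Ermn and Ppp1r14a did not pass the test. The log2 fold changes of Mog (0.34 ± 0.10, SE) and Ppp1r14a (0.38 ± 0.10) were no smaller than that of Cnp (0.34 ± 0.05), with larger SEs. Those of Opalin (0.20) and Ermn (0.06) were smaller. No test compared the genes with each other, so no difference between early and late genes is shown. Cntn2 and Car2 lay below basal in all 3 P numbers, and neither passed the test. No gene of the group was called at 1 µM.

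Mag (ENSRNOG00000021023) encodes a sialic acid-binding adhesion protein of the inner myelin membrane, which binds gangliosides and the Nogo receptor on the axon. Its TPM in P11, P13 and P14 was 1683, 1417 and 1500 in basal cultures, 1875, 1280 and 1633 at 1 µM, and 2612, 1786 and 1885 at 10 µM. The 10 µM libraries all lay above the basal ones, with the lowest at 10 µM (P13) above the highest basal (P11). On the CPM scale this held for 1 of the 8 genes, Mag. The share of all genes that separate this way was not counted, so the separation adds no support. Mag averaged 2094 ± 451 TPM at 10 µM and 1533 ± 136 TPM in basal cultures (SD, n = 3 each). Its log2 fold change was 0.53 ± 0.08 (SE), with an adjusted p of 0.0177, once the P number entered the edgeR fit as a replicate block. Within P11, P13 and P14 the log2 differences of 10 µM minus basal were 0.69, 0.48 and 0.41. Without the block the estimate was 0.54 ± 0.21, with an adjusted p of 0.921, so the call rests on pairing the libraries by P number.

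Cnp (ENSRNOG00000017496) encodes the cyclic nucleotide phosphodiesterase of myelin, which in mice keeps the cytoplasmic channels of the sheath open. In P11, P13 and P14 it had 4109, 3330 and 3447 TPM in basal cultures, 4122, 3410 and 3569 TPM at 1 µM, and 4773, 4175 and 4113 TPM at 10 µM. The 10 µM values lay above basal within every P number, and on the TPM scale the lowest 10 µM library (P14) stood just above the highest basal one (P11), whereas on the CPM scale of the test these groups overlapped. Mean Cnp was 4354 ± 364 TPM at 10 µM and 3629 ± 420 TPM in basal cultures (SD, n = 3 each). The blocked log2 fold change was 0.34 ± 0.05, with an adjusted p of 0.0169, and the within-number differences were 0.26, 0.44 and 0.31. Without the block it was 0.33 ± 0.15, with an adjusted p of 0.983.

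Across all genes, the blocked comparison of 10 µM with basal called 607, which is 3.96% of those tested, with 1.32% higher and 2.64% lower. That count depended on the libraries fitted. It was 0 with only the groups compared, 10 with all P11 libraries left out, 0, 1 and 57 without the basal P11, P13 or P14 library, and 529, 158 and 64 without the 10 µM P11, P13 or P14 library. In the fit of all 9 libraries, 2 of the 8 genes were called, both higher. The median log2 fold change of the 8 genes was 0.27, beside -0.01 over all tested genes, with 6 genes above 0 and 2 below. Without the block, 0% of genes were called, and 0 of the 8 (808 genes in all, and Mag of the group, had an unadjusted p under 0.05). DESeq2 without the block also called 0 of the 8. The calls of Mag and Cnp were lost when any 1 of the 3 basal libraries was left out (adjusted p 0.0680 to 0.0935). Leaving out the 10 µM P13 library ended that of Mag (0.0547), and leaving out the 10 µM P14 library that of Cnp (0.0638). With all P11 libraries left out, the blocked estimates were 0.46 ± 0.10 for Mag (adjusted p = 0.0820) and 0.39 ± 0.07 for Cnp (adjusted p = 0.0682).

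Mog (ENSRNOG00000000775) is an immunoglobulin-family glycoprotein on the outermost face of the sheath and a known autoantigen of demyelinating disease. Its basal TPM in P11, P13 and P14 was 120, 46.2 and 34.1, against 130, 40.6 and 40.8 at 1 µM and 172, 44.3 and 43.5 at 10 µM. The P11 library was the highest at each dose, and the groups overlapped. The blocked log2 fold change at 10 µM over basal was 0.34 ± 0.10, which missed the threshold (adjusted p = 0.0890), and the within-number differences on the log2 CPM scale were 0.56, 0.05 and 0.39. On the TPM scale the 10 µM value in P13 lay below basal. DESeq2 with the block put it past the threshold (0.34 ± 0.10, adjusted p = 0.0157). In RefSeq the gene overlaps Zfp57, which had 296 to 716 reads per library, and the strand setting of the counting is not given in the sources used here. Other members overlap RefSeq genes too: Mag long noncoding RNA genes, Cntn2 a small nuclear RNA gene and Ppp1r14a a protein-coding gene. None of these names was among the counted genes.

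Opalin (ENSRNOG00000022386) is a sialylated transmembrane protein of oligodendrocytes. It had 31.3, 9.58 and 9.49 TPM in the basal P11, P13 and P14 libraries, 28.3, 7.79 and 11.04 TPM at 1 µM, and 38.3, 7.78 and 12.4 TPM at 10 µM. The direction was not shared: within P13 the 10 µM value was below basal, and within P11 and P14 above it. The blocked estimate was 0.20 ± 0.12 (95% interval -0.07 to 0.46, adjusted p = 0.350).

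Ermn (ENSRNOG00000021472) encodes ermin, an actin-binding protein of late oligodendrocytes that resembles the ezrin family. Its TPM was 47.1, 14.3 and 11.6 in basal P11, P13 and P14, 50.7, 13.7 and 14.1 at 1 µM, and 53.0, 9.28 and 13.7 at 10 µM. Here too P13 moved down at 10 µM (log2 difference -0.43) and P11 and P14 up (0.24 and 0.30). The blocked log2 fold change was 0.06 ± 0.13 (95% interval -0.25 to 0.37, adjusted p = 0.819), and it had the opposite sign on the TPM scale (-0.060).

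Ppp1r14a (ENSRNOG00000020676) encodes a phosphorylation-dependent inhibitor of myosin phosphatase, known from smooth muscle and found among mature oligodendrocyte transcripts. Basal TPM was 77.9, 23.8 and 21.5 in P11, P13 and P14, against 69.1, 17.8 and 21.4 at 1 µM and 90.2, 26.5 and 27.5 at 10 µM. The 10 µM library was the highest of its P number in all 3 cases. The log2 fold change of 10 µM over basal was 0.38 ± 0.10 with the block, short of the threshold (adjusted p = 0.0760), with within-number differences of 0.35, 0.35 and 0.43. The mural cell markers, whose cells also make this gene, summed to 128 to 178 CPM in basal cultures, 116 to 184 CPM at 1 µM and 123 to 170 CPM at 10 µM; their part in the result was not tested.

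Car2 (ENSRNOG00000009629) is the cytosolic carbonic anhydrase of oligodendrocytes, which interconverts carbon dioxide and bicarbonate. It had 26.7, 7.74 and 12.5 TPM in basal P11, P13 and P14, 23.0, 7.21 and 11.9 TPM at 1 µM, and 18.9, 6.89 and 10.4 TPM at 10 µM. On the TPM scale the values stepped down with dose within each P number, with the widest steps in P11, while on the log2 CPM scale P13 was 0.05 higher at 10 µM than at 1 µM. The blocked log2 fold change of 10 µM over basal was -0.26 ± 0.10 (95% interval -0.48 to -0.04, adjusted p = 0.161).

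Cntn2 (ENSRNOG00000009033) is a contactin of the juxtaparanode, where it links the axon and the glial membrane, and neurons make it as well. Its TPM was 0.803, 1.80 and 1.69 in basal P11, P13 and P14, 0.995, 1.63 and 1.55 at 1 µM, and 0.572, 1.17 and 1.28 at 10 µM. Unlike the other 7 genes, it was lowest in P11 at every dose. The blocked log2 fold change was -0.43 ± 0.15 (adjusted p = 0.141), with all 3 within-number differences between -0.50 and -0.33. Neuron markers summed to 1584 to 1934 CPM in basal cultures, 1394 to 1862 CPM at 1 µM and 1419 to 1611 CPM at 10 µM, and 4 of 14 tested (Gad1, Stmn2, Gad2 and Slc32a1) fell at 10 µM over basal, where 2.64% of all genes did; their part in the Cntn2 values was not tested. With 1 library left out, 0 to 4 of these 14 fell. In bulk samples such as these, fewer cells of a type and less RNA per cell cannot be told apart.

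**Figure D2:**
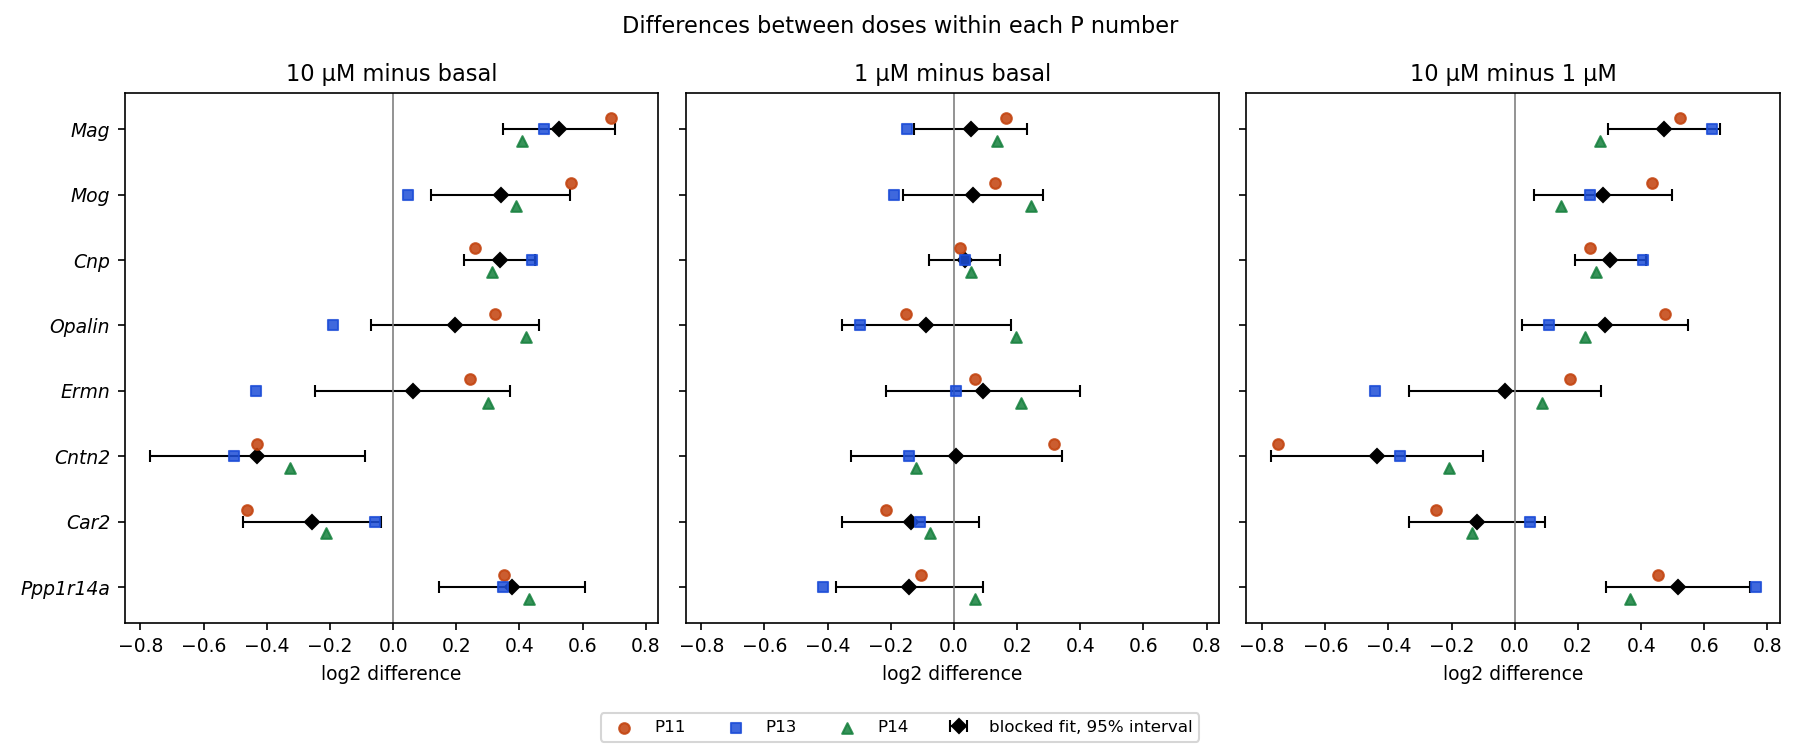
Log2 differences for the 8 genes in 3 comparisons: 10 µM minus basal, 1 µM minus basal and 10 µM minus 1 µM. Coloured points are the differences within P11, P13 and P14 on the log2 CPM scale, and diamonds with bars are the blocked edgeR estimates with their 95% intervals. Mag, Mog, Cnp and Ppp1r14a lie to the right of 0 in every P number in the left and right panels, and all 8 intervals of the middle panel include 0.

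At 1 µM bavisant, 0 of the 8 genes were called against basal, with or without the block, as were 0% of all genes in either fit (81 genes had an unadjusted p under 0.05 without the block and 582 with it, none of them among the 8). Blocked log2 fold changes lay between -0.14 (Ppp1r14a) and 0.09 (Ermn). For Mag the estimate was 0.05, with a 95% interval of -0.12 to 0.23, and for Cnp 0.03, with an interval of -0.08 to 0.15. The interval was widest for Cntn2, at -0.33 to 0.34, and for Mog it ran from -0.16 to 0.28. DESeq2 called 0 of the 8 too. The intervals do not show that the doses act alike on these genes, and the difference between the doses was tested itself.

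At 10 µM against 1 µM, Mag, Cnp and Ppp1r14a rose in the blocked fit, 3 of the 8, against 4.3% of all tested genes (1.31% higher and 3% lower). Ppp1r14a averaged 48.1 ± 36.5 TPM at 10 µM and 36.1 ± 28.6 TPM at 1 µM (SD, n = 3 each), a spread set by P11, and its blocked log2 fold change was 0.52 ± 0.10 (adjusted p = 0.0323). The within-number differences were 0.45, 0.76 and 0.36 in P11, P13 and P14. Mag was higher by 0.47 ± 0.08 (adjusted p = 0.0228) and Cnp by 0.30 ± 0.05 (adjusted p = 0.0225). Mog (0.28, adjusted p = 0.144), Opalin (0.28, adjusted p = 0.204), Ermn (-0.03, adjusted p = 0.923), Car2 (-0.12, adjusted p = 0.502) and Cntn2 (-0.44, adjusted p = 0.138) missed the threshold. In the fit without the block, 0% of genes were called and 0 of the 8 (717 genes had an unadjusted p under 0.05, none of them among the 8), and DESeq2 without the block also called 0 of the 8.

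The calls between the doses depended on single libraries as well. Over all genes, 659 were called, against 0 with only the groups compared, 110 with all P11 libraries left out, 0, 31 and 0 without the 1 µM P11, P13 or P14 library, and 651, 182 and 0 without the 10 µM P11, P13 or P14 library. Leaving out any 1 of the 1 µM libraries, or the 10 µM P14 library, left 0 of the 3 called, and leaving out the 10 µM P13 library left 1, Cnp. Ppp1r14a kept its call in 1 of 9 such runs, without the basal P13 library. The comparison of 10 µM with basal and that of 1 µM with basal share the basal libraries, and those of 10 µM with basal and with 1 µM share the 10 µM libraries, so their agreement is no independent evidence.

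Mog, Opalin, Ermn, Ppp1r14a and Car2 had larger log2 differences between P11 and the other P numbers than between doses. All 8 genes differed between P numbers in the edgeR test with dose in the fit (adjusted p 4.66e-06 to 0.00256), where 51.5% of all genes did. Ermn was 3.93-fold higher in P11 than in the mean of P13 and P14, Ppp1r14a 3.57-fold, Mog 3.51-fold, Opalin 3.50-fold and Car2 2.54-fold. Mag and Cnp differed by 1.36-fold and 1.24-fold, and Cntn2 was lower in P11, at 0.545 of the others. For this contrast 50.6% of all genes were called, 25.2% higher and 25.4% lower in P11, and the median absolute log2 difference was 0.23.

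Set against that background, the log2 differences of Ermn (1.98 ± 0.11), Ppp1r14a (1.84 ± 0.08), Mog (1.81 ± 0.08) and Opalin (1.81 ± 0.09) were exceeded in size by 2.44%, 2.93%, 3.06% and 3.07% of tested genes. That of Car2 (1.34 ± 0.08) was exceeded by 5.85% and that of Cntn2 (-0.87 ± 0.13) by 12.2%. Mag (0.44 ± 0.07) and Cnp (0.31 ± 0.04) were nearer the middle of all genes, exceeded by 28.9% and 39.6%. Mog, Opalin, Ermn and Ppp1r14a thus had similar differences in this contrast, larger than those of Mag and Cnp. No test compared the genes with each other. This does not extend to late genes in general. Of 46 other late oligodendrocyte genes, 28 were higher and 5 lower in P11 (median log2 difference 0.32). Of 15 compact myelin and other myelin membrane proteins, 10 were higher and 0 lower (median 0.28). Of all genes, 25.2% were higher and 25.4% lower.

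The P11 excess was present at each dose. The ratio of the P11 TPM to the mean of P13 and P14 was 2.98, 3.19 and 3.92 for Mog in basal, 1 µM and 10 µM cultures, and 3.64, 3.64 and 4.60 for Ermn. For Opalin it was 3.28, 3.01 and 3.81, and for Ppp1r14a 3.44, 3.52 and 3.34. The ratio for Car2 was 2.64, 2.41 and 2.18. Relative to Mag, Mog stood at 6.59% to 7.10% of the Mag TPM in the P11 libraries and at 2.27% to 3.26% in the others, so the makeup of the group differed between P numbers as well as its level.

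Between P13 and P14, 1 of the 8 genes was called, Car2, which was lower in P13 by a log2 difference of -0.65 ± 0.10 (adjusted p = 0.00513), against 12.3% of all genes. Opalin came next in size, at -0.35 ± 0.12 (adjusted p = 0.0952). Cnp was level between these numbers (0.00 ± 0.05). Neuron marker genes moved with P11 too, with 9 of 14 lower and 4 higher there (median log2 difference -0.64), as did microglia markers, with 8 of 12 lower, and oligodendrocyte markers, with 11 of 16 higher and 1 lower, where 25.4% of all genes were lower and 25.2% higher. The part of these cell types in the differences between P numbers was not tested.

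**Figure D3:**
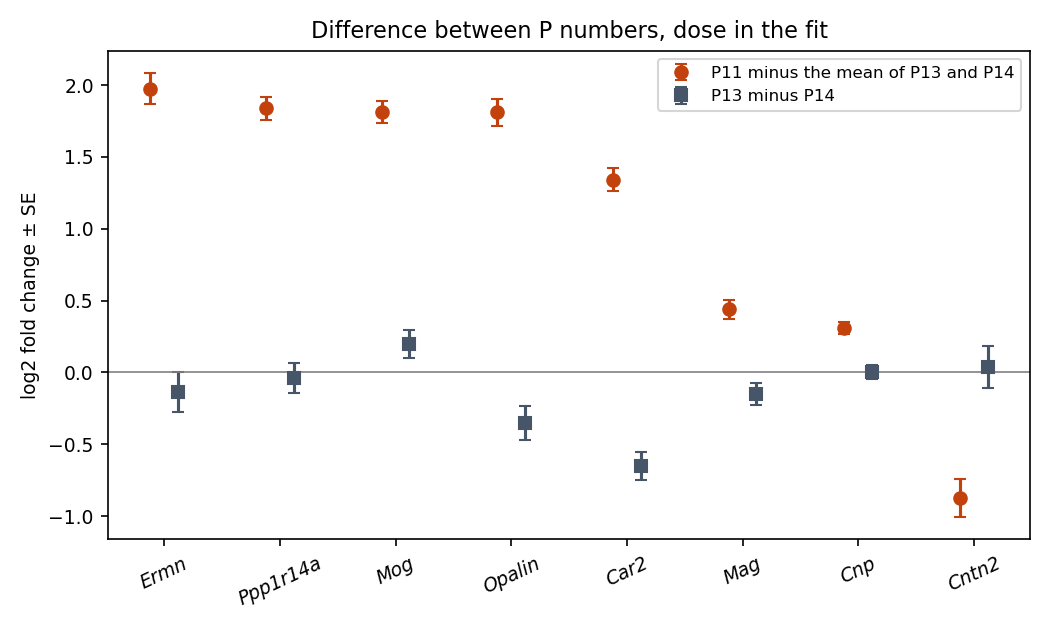
Log2 fold change ± SE (vertical axis) between P numbers for each gene, from the edgeR fit with dose. Circles are P11 minus the mean of P13 and P14 and squares are P13 minus P14. The circles of Ermn, Ppp1r14a, Mog and Opalin lie between 1.81 and 1.98, those of Mag and Cnp below 0.5, and that of Cntn2 below 0.

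The genes were also compared by their pattern over the 9 libraries. As a measure of likeness, the root mean square difference of log2 CPM was taken after centring each gene on its own mean. Mag and Cnp differed least (0.15), followed by Mog and Ppp1r14a (0.18) and by Opalin and Ermn (0.19). Opalin and Ppp1r14a (0.21), Mog and Opalin (0.24) and Mog and Ermn (0.24) came close behind. Mog, Ppp1r14a, Opalin and Ermn thus do not form separate pairs. Cntn2 was the most distant, at 0.67 to 1.37 from the other 7. Its own spread over the libraries was 0.47 on this scale, against 0.21 for Cnp, 0.33 for Mag and 0.94 for Ermn. The measure is not scaled to the spread of a gene, so genes that vary little lie close together. For Mag and Cnp, 0.15 is a large part of their spread. Mog and Ppp1r14a, with spreads of 0.87 and 0.90, were closer relative to how much they vary.

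Among 9328 other genes with a mean of at least 10 CPM, the nearest to Mag were Josd2, a deubiquitinase (0.085), and Lgi3, a secreted leucine-rich repeat protein (0.094). Nearest to Cnp were Fen1, a DNA flap endonuclease (0.058), and Rab4b, a small GTPase of endosomal recycling (0.059). Mog was closest to Jcad, a junctional protein (0.20), and to the carnosine synthase Carns1 (0.22). Carns1 (0.18) and Mal, a proteolipid of compact myelin (0.28), were nearest to Ppp1r14a. Hhip, an inhibitor of hedgehog ligands, led for both Opalin (0.15) and Ermn (0.14), followed by the membrane-bound carbonic anhydrase Ca14 for Opalin (0.27) and the proteoglycan Spock1 for Ermn (0.21). Ca14 (0.18) and the intermediate filament protein Synm (0.20) were closest to Car2. Cntn2 was nearest to the chemokine Cx3cl1 (0.11) and to Cadps, which acts in the release of dense-core vesicles (0.12).

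The list of compact myelin proteins and other myelin membrane proteins had 7 of 15 tested genes higher and 1 lower at 10 µM over basal with the block (median log2 fold change 0.24), among them Mobp (0.66 ± 0.11), Mbp (0.54 ± 0.07) and Mal (0.53 ± 0.10). The one that fell, Cd82 (-0.30 ± 0.06), is a tetraspanin, named after its value was seen. In the list of paranodal, adhesion and gap junction genes 5 of 27 rose and 0 fell (median 0.09), among them Lgi3 (0.40 ± 0.05), the semaphorin Sema4d (0.35 ± 0.06) and the connexin Gjb1 (0.31 ± 0.07). Of 46 other late oligodendrocyte genes 13 rose and 1 fell (median 0.18), including Aspa, which breaks down N-acetylaspartate (0.38 ± 0.05), the sulfatide synthase Gal3st1 (0.33 ± 0.05), the sphingosine phosphate receptor S1pr5 (0.59 ± 0.08) and the receptor Gpr37 (0.29 ± 0.05). The one of these that fell was Mboat1, a lysophospholipid acyltransferase (-0.61 ± 0.11), likewise named after its value was seen. The share of all genes that rose was 1.32%, and 2.64% fell. Against 1 µM, the counts at 10 µM were 5 higher and 1 lower, 5 and 1, and 15 and 2 in these 3 lists, where 1.31% of all genes were higher and 3% lower, and at 1 µM over basal 0 genes of any list were called. These counts depended on the libraries fitted: over basal, all were 0 with only the groups compared, with all P11 libraries left out, and without the basal P11 or P13 library. Over the runs with 1 library left out, the numbers higher than basal were 0 to 6, 0 to 4 and 0 to 14 in the 3 lists. Against 1 µM, all were 0 with only the groups compared and without the 1 µM P11, 1 µM P14 or 10 µM P14 library.

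In the families and pathways of single members, counts at 10 µM over basal with the block stand beside 1.32% of all genes higher and 2.64% lower. They too were all 0 in the 4 settings named for the myelin lists. Of the 5 other contactins Cntn3 fell (-0.74 ± 0.11), and Cntn5 (-0.86 ± 0.21, adjusted p = 0.0642) did not pass. Of 15 other carbonic anhydrases 7 had enough reads, Car1 and Ca4 were at 0 in all libraries, and 0 were called, with Ca8 at -0.21 ± 0.07 (adjusted p = 0.146). In the list of Ppp1r14 relatives and the myosin phosphatase pathway, 1 of 23 rose, the myosin light chain kinase Mylk (0.59 ± 0.08). Among receptors and axonal partners of Mag, 1 of 13 rose, Lingo1 (0.24 ± 0.05), a part of the Nogo receptor complex. Of 18 actin and microtubule genes linked to Cnp and Ermn, the actin-severing Gsn rose (0.27 ± 0.05), while Ezr (-0.32 ± 0.08, adjusted p = 0.0586) and Msn (-0.28 ± 0.07, adjusted p = 0.0629) did not pass. At 10 µM over 1 µM, Ezr (-0.39 ± 0.08) and Msn (-0.32 ± 0.07), which tie actin to the membrane, fell and Stmn4 (0.23 ± 0.05) rose.

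Of the marker lists, 8 of 16 oligodendrocyte genes rose and 0 fell at 10 µM over basal with the block (median 0.34), beside 1 of 12 OPC genes higher (Olig2, 0.29 ± 0.06). Astrocyte markers had 4 of 12 lower (Slc4a4, Acsbg1, Slc1a2 and Slc1a3), microglia 2 of 12 lower (Itgam and Cd68), and mural cells 1 higher (Mylk) and 1 lower (Notch3) of 7. Schwann cell markers had 1 of 8 higher (Pmp2), and choroid plexus and ependyma 0 of 5 called. Of all genes, 1.32% were higher and 2.64% lower. The same 4 settings left 0 genes of any marker list called, and over the runs with 1 library left out 0 to 8 oligodendrocyte genes rose and 0 to 3 astrocyte genes fell. Astrocyte sums were 3227 to 3884 CPM in basal cultures, 2942 to 4168 CPM at 1 µM and 2405 to 3431 CPM at 10 µM. Whether these shares of other cells move the values of the 8 genes was not tested.

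**Figure D4:**
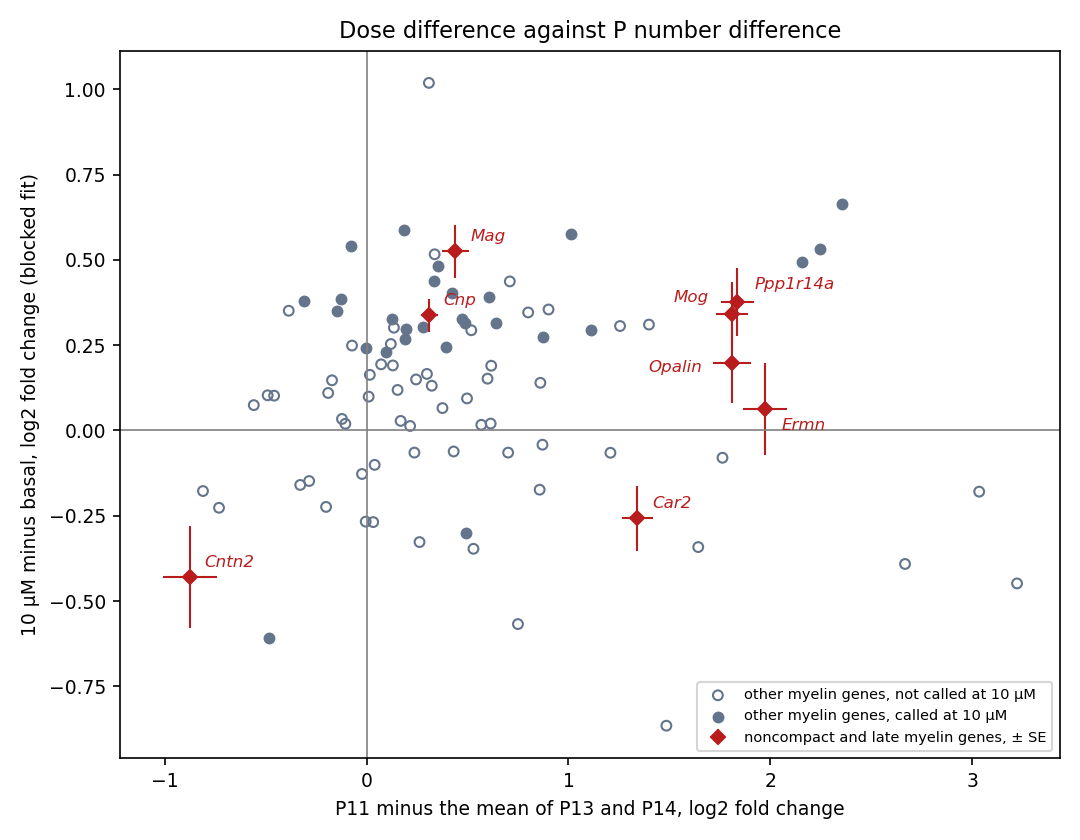
Log2 fold change of 10 µM minus basal in the blocked fit (vertical axis) against that of P11 minus the mean of P13 and P14 (horizontal axis), for the 8 genes (diamonds, ± SE) and 87 other myelin genes of the 3 lists above (circles, filled for the 27 called at 10 µM). Mag and Cnp lie at small P11 differences among filled circles. Mog, Opalin, Ermn and Ppp1r14a lie far to the right with dose differences between 0.06 and 0.38, a range that includes Cnp (0.34). Some filled circles, such as those of Mobp and Mal, lie far to the right as well.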

How the data were processed

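For each library the authors deposited estimated counts (expected counts, of which 92.7% are whole numbers, with no scaling between libraries) and TPM values. The submitters' processing notes name DRAGEN, Picard, Trimmomatic and FastQC, and the genome build rn6, per the labels. The counting program, its strand setting and the annotation are not given in the sources. Per the labels' protocols, libraries were made with a stranded mRNA kit. Those protocols put the lower dose at 1 mM, but the label for treatment and the series' design say 1 µM, which is used here. RefSeq GRCr8 was used for promoter sequences and gene overlaps only.

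Estimated counts were rounded and tested in R 4.3.3 with edgeR 4.0.16 (quasi-likelihood F test, TMM factors, filterByExpr with a count minimum of 10 and a total minimum of 15) on all 9 libraries. P-values were adjusted by Benjamini-Hochberg over 15321 genes, and an adjusted p under 0.05 was called. SEs are the size of the log2 fold change over the square root of F, and 95% intervals use the degrees of freedom of the fit. The first fit had 1 coefficient per dose, and the blocked fit added the P number. The numbers were taken to pair the libraries because all 9 same-number pairs of deviations from group means correlated above 0.1 across genes (0.319 to 0.772, against -0.708 to 0.193 in 18 pairs with different numbers). Deviations from a group mean cancel out within the group, so pairs with different numbers are pushed down and are no neutral reference. Some of those pairs also passed 0.1, though none reached 0.319. Libraries of the same dose differed by more than sampling noise (chi-square over its degrees of freedom 24.3 to 119). CPM and likeness used TMM-scaled totals, with a prior count of 2 for log2 values.

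The rule names the 8 genes and uses no measured value, but they and the lists were chosen with earlier results of these data known. Named were all 8 genes, for each the 2 genes of most similar pattern (mean of at least 10 CPM, no placeholder symbol), and up to 4 genes with the smallest p of each list; Ezr, Msn, Cntn5 and Ca8 fall under this rule without a call. Alternatives were DESeq2 1.42.0 and its size factors, library totals, limma 3.58.1 on log2(TPM + 1) or log2(TPM + 0.1) with a filter of 1 TPM in 3 libraries or none, a count filter set to none or to a mean of 100 reads, only the groups compared, all P11 libraries left out (with the block), and each library left out in turn. List counts with libraries left out were added after seeing the data. The steps were tested on simulated data. Some genes that the naming rule takes are not reported here.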

Additional observations from a re-analysis of the deposited data

How the results depend on the processing

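The count of called genes among the 8 depended on the replicate block: 2 with it at 10 µM over basal and 3 at 10 µM over 1 µM, against 0 without it in each. With the block, both counts were 0 in limma on log2(TPM + 1) without a filter, when only the groups compared were fitted, and when the P11 libraries were left out. With each library left out in turn they were 0 to 3 and 0 to 3. The other blocked settings kept the counts within 1.5 times, the count at 1 µM over basal was 0 in every setting run, and the P number test called 8 of 8 in its 4 alternatives. The cause was not tested, except that leaving libraries out leaves fewer samples.

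Signs turned for Ermn and Cntn2, at values near 0, in these settings. Ermn at 10 µM over basal was -0.060 (limma on log2(TPM + 1), with or without filter or block), -0.068 (log2(TPM + 0.1), with or without block) and -0.043 (P11 left out). At 10 µM over 1 µM it was -0.16 and -0.18 by limma with these pseudocounts and no block, and -0.030 with the block. Cntn2 at 1 µM over basal was 0.0072 with the block and 0.0077 by limma on log2(TPM + 0.1) without it, and, with the block, -0.0077 by limma on log2(TPM + 1), -0.00080 with only the groups compared and -0.13 without P11.

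Leaving out 1 library without the block moved log2 fold changes across 0. Each such run also leaves the groups with unequal sets of P numbers, and the cause of the moves was not tested. At 10 µM over basal the ranges were -0.57 to 1.21 (Mog), -0.71 to 1.11 (Opalin), -0.96 to 1.08 (Ermn), -0.81 to 0.33 (Car2) and -0.49 to 1.26 (Ppp1r14a). At 1 µM over basal they were -0.099 to 0.22 (Mag), -0.76 to 0.86 (Mog), -0.083 to 0.16 (Cnp), -0.88 to 0.75 (Opalin), -0.81 to 1.01 (Ermn), -0.30 to 0.16 (Cntn2), -0.74 to 0.50 (Car2) and -1.05 to 0.76 (Ppp1r14a). At 10 µM over 1 µM they were -0.65 to 1.20 (Mog), -0.60 to 1.15 (Opalin), -1.05 to 0.97 (Ermn), -0.65 to 0.43 (Car2) and -0.37 to 1.43 (Ppp1r14a). With the block they were -0.063 to 0.25 (Ermn, 10 µM over basal), -0.022 to 0.14, -0.020 to 0.19, -0.21 to 0.048 and -0.13 to 0.10 (Mag, Mog, Opalin and Cntn2, 1 µM over basal), and -0.15 to 0.15 (Ermn, 10 µM over 1 µM). Mag and Cnp stayed positive at 10 µM in every setting run. Depth limits Cntn2 most, at 57 to 195 reads per library.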
